A study of Mus musculus with 21 samples.

Results

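The glucocorticoid receptor (GR) sites described here are those that lay in groups along a chromosome. Peaks from 18 GR ChIP-seq lists were joined wherever they shared 1 bp or more, which gave 7398 sites, and 2563 of these occurred in at least 3 lists. Of these, neighbours whose centres lay at most 25 kb apart were joined into chains, and the sites of chains with 3 or more sites were kept. This gave 556 clustered sites in 139 chains, 21.7% of the 2563. The other 2007 sites stood alone (1479 sites) or in 264 pairs. Position and the number of lists alone made the choice. Of the 556, 298 were called in no PBS library and so entered through DEX libraries only.

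The lists came from livers of C57BL/6J mice that were injected intraperitoneally with dexamethasone (DEX, a synthetic glucocorticoid, 10 mg/kg) or with phosphate-buffered saline (PBS) and sampled 2 h later. Both injections were given at 21% oxygen (normoxia) and after 6 h or 24 h at 7% oxygen (hypoxia), and hypoxic mice went back to 7% oxygen until sampling. DEX and PBS in 3 oxygen conditions made 6 groups of 3 libraries, named as biological replicates in the design text. No transgene or mutation is named for any group, the age and sex of the mice are not given in the sources used here, and the chromatin came from whole, snap-frozen liver. A change in binding per cell and a change in the share of cells with binding can therefore not be told apart.

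GR is a nuclear receptor that stays in the cytoplasm until it binds a glucocorticoid, and then enters the nucleus and binds DNA, often as a dimer at a palindromic response element. In liver it is known for switching on genes of glucose production, amino acid breakdown and lipid handling. Many of its binding sites lie far from promoters, and several enhancers near 1 gene are common at its classical targets.

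Depth was 5772670 to 13181686 tags in DEX libraries and 8667179 to 43645787 in PBS libraries. The caller scaled the tag count of each peak to 10000000 tags per library. The deepest library, normoxia PBS replicate 1, stood apart: it was called with a 280 bp peak size and up to 2 tags per base, against 178 to 196 bp and 1 tag in the others, and it listed 3915 peaks. Some results that rest on it are also given without it. As a check of the tissue, 6 of 10 hepatocyte marker genes were the nearest gene of a site found in 3 or more lists, against 3 of 10 endothelial markers, 0 of 10 Kupffer cell and leukocyte markers and 0 of 10 stellate cell and cholangiocyte markers. Of these genes, Tat alone, a hepatocyte gene, had clustered sites.

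Most clustered sites lay away from promoters, so sequence is shown for the few that covered one. Of the 556 sites, 31 (5.58%) overlapped 35 promoter windows of RefSeq (build GRCm38.p6, the assembly behind mm10, each window reaching from 250 bases before to 50 bases after a start), against 128 of the other 2007 sites (6.38%). The 6 stretches below are the parts of some of these windows that lay inside a clustered site. Shown are windows that shared at least 200 bases with a site called in all 9 DEX libraries. Orm3, called in 6 DEX libraries, was added beside Orm2. The stretches are examples and do not stand for all 35 windows. They run 5′ to 3′ on the strand of the named gene, and capitals mark the receptor motif AGAACA or its reverse complement. Orm2 and Orm3, neighbouring genes of the acute phase protein orosomucoid, are set together because they are near copies. Their stretches come from chr4:63362221-63362445 and chr4:63355919-63356139, both on the plus strand.
Orm2: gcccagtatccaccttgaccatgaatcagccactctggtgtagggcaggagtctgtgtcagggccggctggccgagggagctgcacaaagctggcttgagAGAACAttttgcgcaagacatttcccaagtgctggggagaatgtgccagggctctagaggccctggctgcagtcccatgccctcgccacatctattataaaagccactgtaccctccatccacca
Orm3: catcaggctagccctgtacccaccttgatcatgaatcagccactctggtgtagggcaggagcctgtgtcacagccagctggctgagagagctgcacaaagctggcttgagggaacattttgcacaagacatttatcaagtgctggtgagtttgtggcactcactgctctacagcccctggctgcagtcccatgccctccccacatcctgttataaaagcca
The gene of Pemt, which makes phosphatidylcholine in liver, and that of Phyhd1, a dioxygenase, gave chr11:60036956-60037201 on the minus strand and chr2:30265996-30266202 on the plus strand.
Pemt: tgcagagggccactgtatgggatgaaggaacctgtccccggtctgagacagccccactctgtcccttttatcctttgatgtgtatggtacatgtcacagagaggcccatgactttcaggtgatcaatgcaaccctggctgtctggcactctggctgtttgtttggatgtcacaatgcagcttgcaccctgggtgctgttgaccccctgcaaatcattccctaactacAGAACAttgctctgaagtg
Phyhd1: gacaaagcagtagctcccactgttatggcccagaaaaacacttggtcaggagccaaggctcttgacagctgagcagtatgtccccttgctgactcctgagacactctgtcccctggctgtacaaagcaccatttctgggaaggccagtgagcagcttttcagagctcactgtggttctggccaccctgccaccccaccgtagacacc
Gm15889 and Gm32287 are predicted genes inside the Slc12a3/Herpud1 and Cebpb chains, at chr8:94377629-94377909 on the plus strand and chr2:167777419-167777664 on the minus strand.
Gm15889: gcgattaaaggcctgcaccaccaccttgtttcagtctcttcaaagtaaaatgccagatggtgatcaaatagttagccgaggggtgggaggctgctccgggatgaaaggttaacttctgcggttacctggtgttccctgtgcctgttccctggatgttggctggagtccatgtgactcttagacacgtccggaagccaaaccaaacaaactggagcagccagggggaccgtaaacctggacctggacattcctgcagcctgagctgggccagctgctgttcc
Gm32287: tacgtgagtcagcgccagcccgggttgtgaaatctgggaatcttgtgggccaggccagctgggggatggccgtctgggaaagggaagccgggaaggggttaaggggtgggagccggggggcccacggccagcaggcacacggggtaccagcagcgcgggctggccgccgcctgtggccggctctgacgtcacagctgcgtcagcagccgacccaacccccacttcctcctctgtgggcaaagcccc

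The receptor was called at the Orm2 promoter site in 9 of 9 DEX libraries (117 ± 27.2 normalized tags, SD, n = 9) and in 1 of 9 PBS libraries, and at that of Orm3 in 6 DEX libraries (58.6 ± 10.4, n = 6) and 0 PBS libraries. The whole Orm2 and Orm3 windows were identical at 264 of 295 aligned positions (89.5%), with 10 gap positions. AGAACA stood in the Orm2 window and not in the Orm3 window. Reads from such near copies can be split between them, so the tag counts of both are uncertain. Pemt was called in 9 DEX and 0 PBS libraries (118 ± 32.6 tags with DEX) and Phyhd1 in 9 DEX and 1 PBS library (210.4 ± 25 tags with DEX).

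Motifs were searched on both strands of all windows. The full palindromic element, AGAACA and its reverse complement with 3 bases between them, was in 0 of 35 windows under clustered sites, 0 of 146 under other sites and 0.00913% of all 32851 windows. A looser element, GNACA and its reverse complement TGTNC with 3 bases between them, also matches every full element and was in 0 of 35 windows under clustered sites, 14 of 146 under other sites (9.59%) and 0.475% of all windows. AGAACA, contained in the full element, was in 10 of 35 windows (28.6%), against 17.8% under other sites and 19.0% of all windows. These shares describe 300-base promoter windows and not the distal sites, whose sequence was not used here. The 35 and 146 windows include none under sites on chromosome 18, which were not searched.

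The chains were of many shapes. There were 75 chains of 3 sites, 37 of 4, 11 of 5 and 16 with 6 to 12 sites. A chain spanned a median of 20.7 kb, between 1.92 kb for the 3 sites in Map2k3, which encodes a kinase upstream of p38, and 114.8 kb for the 12 sites at Slc45a1 and Errfi1. The 417 spacings between neighbouring centres had a median of 5287 bp and ran from 388 to 24980 bp, and 96 were under 2 kb. The widest spacing kept was the 24980 bp between sites at Fxyd3 and Hpn, and the narrowest left out was 25026 bp between sites in Baiap2. At the other edge of the choice, 77 clustered sites were in exactly 3 lists, and 31 sites in exactly 2 lists lay within 25 kb of a clustered site.

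By the nearest protein-coding gene, 94 chains belonged to 1 gene, 37 to 2, 7 to 3 or more and 1 to none, for 186 genes in all. In 56 chains every site lay inside a gene and in 39 none did. Clustered sites resembled the others in this respect: 306 of 556 lay inside a gene (95% Wilson interval 50.9% to 59.1%), against 1111 of 2007 other sites (53.2% to 57.5%). A gene end was at most 1 kb away at 61 of the 556 (8.64% to 13.8%), against 238 of the 2007 (10.5% to 13.3%). Outside genes, the median distance to the nearest gene was 9647 bp for 240 clustered sites with a gene on their sequence and 14431 bp for 896 other sites. No test was made of these shares, and the intervals cover counting error only.

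**Figure D1:**
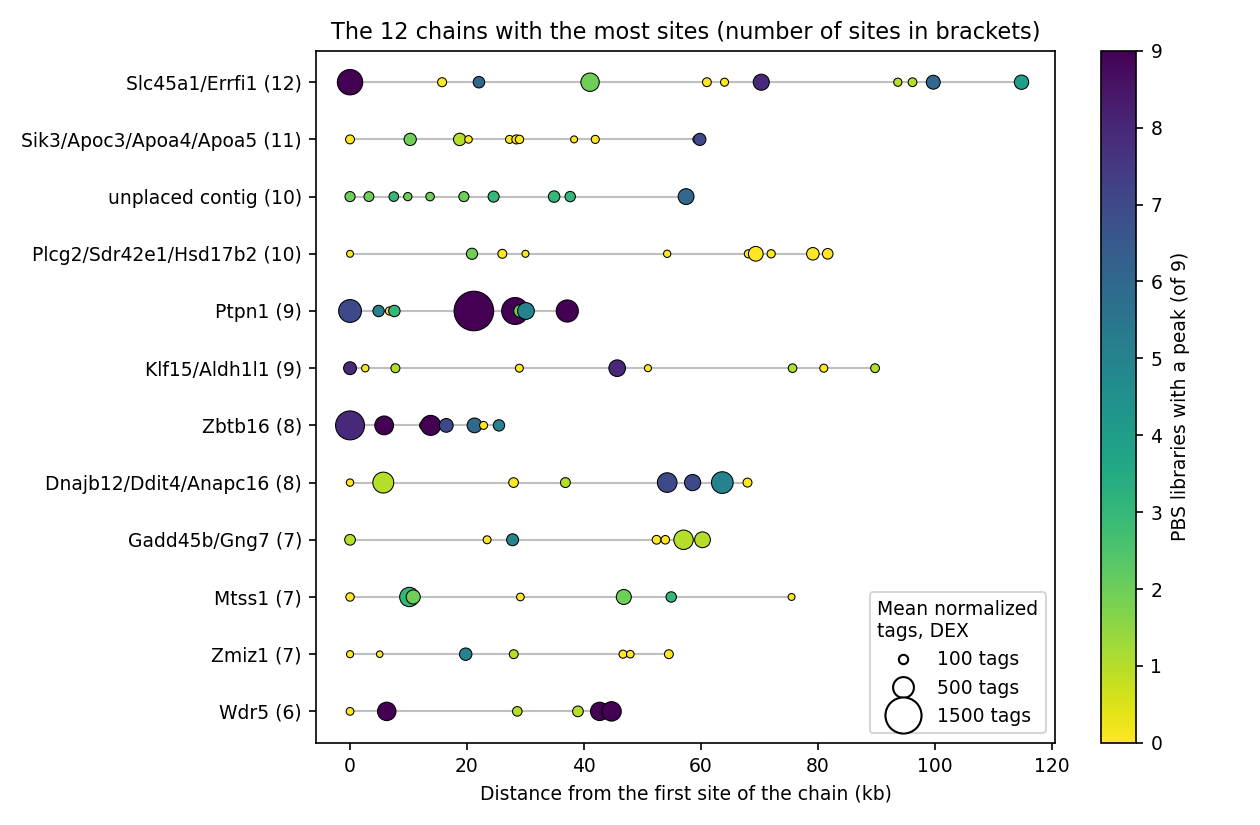
Each row is 1 of the 12 chains with the most sites, and each circle is a site at its distance in kb from the first site of the chain. Circle area gives the mean normalized tag count with DEX and colour the number of PBS libraries (of 9) with a peak. The Ptpn1 and Zbtb16 chains are compact, 37.2 and 25.5 kb, and hold sites called in all 9 PBS libraries, while the Plcg2/Sdr42e1/Hsd17b2 chain spreads over 81.7 kb with 9 of 10 sites called in no PBS library.

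The largest chain ran from 33080 bp outside Slc45a1, a sugar transporter gene, towards Errfi1, whose product inhibits the epidermal growth factor receptor (chr4:150685116-150800227, 12 sites). Its strongest site, called in all 18 libraries, averaged 742.9 ± 231 tags in DEX livers and 280.2 ± 206 in PBS livers (SD, n = 9 each). Of the 12 sites, 4 were called in no PBS library. The chain at Sik3, a salt-inducible kinase gene, and the apolipoprotein genes Apoc3, Apoa4 and Apoa5 had 11 sites over 59.8 kb (chr9:46196872-46257046). It was the most even chain: its strongest site, inside Sik3, took 15.7% of the summed mean DEX tags.

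Ptpn1 encodes a phosphatase that acts on the insulin receptor, and its 9 sites lay 70003 to 107155 bp from the gene (chr2:167823455-167860887). They included a site that averaged 1805 ± 320.8 tags in DEX livers and 1018 ± 542 in PBS livers (SD over 9 libraries). The chain before it on the chromosome held 4 sites 74804 to 91336 bp from Cebpb, a transcription factor gene. Klf15, a transcription factor gene of amino acid breakdown, and the folate enzyme gene Aldh1l1 shared 9 sites (chr6:90463490-90553522). Zbtb16, the gene of the transcription factor PLZF, held 8 sites inside the gene (chr9:48723725-48749475), the strongest with 965.2 ± 187 tags with DEX (n = 9) and 220.1 ± 289.7 with PBS (n = 8).

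Ddit4, which encodes an inhibitor of mTORC1, shared 8 sites with Dnajb12 and Anapc16 (chr10:59915473-59983772). A site 754 bp from Ddit4 itself held 113 ± 16.2 tags with DEX (n = 9) and was called in 1 PBS library, while the strongest of the chain, 542 ± 113 tags with DEX, lay 8052 bp from Anapc16. Wdr5, which encodes a subunit of histone methyltransferase complexes, was the nearest gene of 6 sites that lay 17981 to 62704 bp outside it (chr2:27554404-27599379). Of these, 3 were called in all 18 libraries. In a median chain the strongest site took 41.8% of the summed mean DEX tags, and in a chain at Gadd45g it took 86.5%.

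One chain of 10 sites lay on an unplaced contig (JH584304.1), with no gene in the table used. Its peaks had a median fold over input of 4.90 in the authors' lists, near the required 4, against 72.0 for all other clustered sites. Per library, 3.11 ± 2.85 of its sites were called in DEX livers and 3.11 ± 3.44 in PBS livers (SD, 9 libraries per arm). Of the 556 clustered sites 5 were called in more PBS than DEX libraries, against 46 of all 2563 sites. Of these 5, 4 were on this contig and the other lay in Hjurp, a centromere chaperone gene. Without the contig there were 546 clustered sites in 138 chains.

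More sites of these chains were called with DEX. The 9 DEX libraries called 309 to 520 of the 556 clustered sites (median 446), and the 9 PBS libraries 28 to 185 (median 79). At least 3 sites of a chain were called in 44 to 128 chains per DEX library (median 91) and in 3 to 24 per PBS library (median 8). The DEX and PBS ranges did not overlap in these counts, nor did they for the other sites. At least 1 site was called in 124 to 139 of the 139 chains with DEX and in 19 to 90 with PBS.

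**Figure D2:**
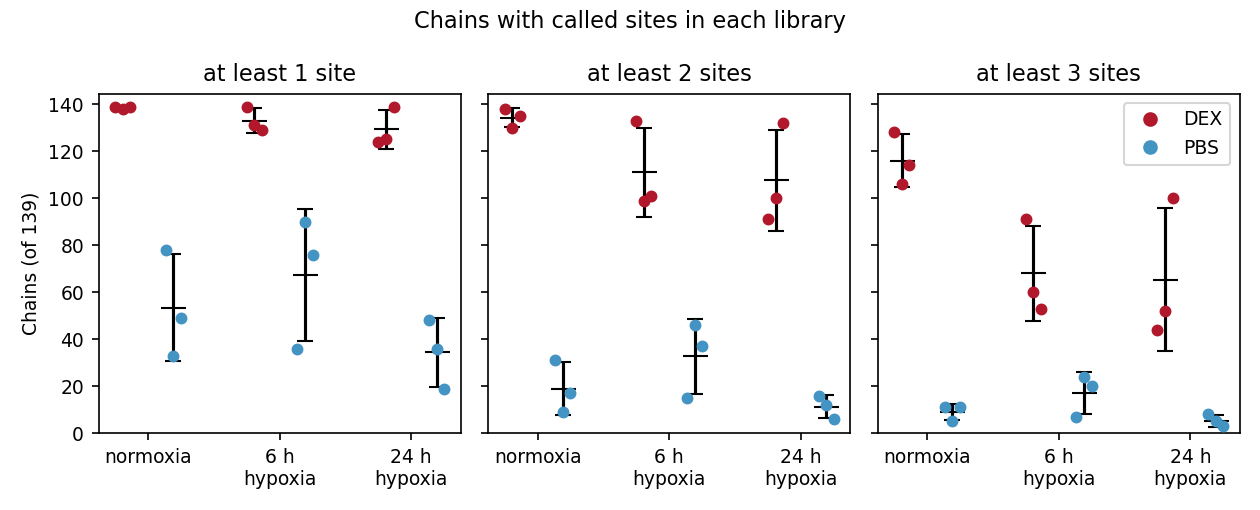
Points are libraries, and the y axis counts the chains, of 139, in which at least 1, 2 or 3 sites were called. Bars are the mean and SD of 3 libraries per group. For at least 3 sites, the means with DEX were 116 in normoxia, 68 after 6 h and 65.3 after 24 h of hypoxia, and those with PBS were 9, 17 and 5.33.

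Counted by chain, 135 of 139 were called at more sites with DEX than with PBS and 0 at fewer, in an exact two-sided permutation test of DEX labels within oxygen conditions (Benjamini-Hochberg over 1882 chains of every size, adjusted p under 0.05). The choice of sites used the calls of all 18 lists, and the 298 sites with no PBS call could add to the DEX side only, so these counts are a description to be read beside other chains. Over chains of every size the share called more was 61.3% and the share called fewer 0.0531%. It was 53.5% of single sites and 86.4% of pairs, so the share was higher where a chain had more sites to count. With every list shortened to the same length, an alternative chosen after seeing the data, 0 chains passed as called at more sites. At 64 chains the p was 0.00025, the smallest the test can give. In 43 chains (30.9%) no PBS library reached the lowest DEX library, against 10.7% of chains of every size.

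The largest mean differences were 7.33 sites at Sik3/Apoc3/Apoa4/Apoa5, 7.00 at Plcg2/Sdr42e1/Hsd17b2 and 6.67 at Slc45a1/Errfi1. At Sik3/Apoc3/Apoa4/Apoa5 6 to 10 of 11 sites were called in a DEX library (median 9) and 0 to 3 in a PBS library (median 1). At Plcg2/Sdr42e1/Hsd17b2 5 to 10 of 10 sites were called with DEX (median 7) and 0 or 1 with PBS (median 0). Hsd17b2 encodes an enzyme that oxidises estradiol and testosterone, and its strongest site (chr8:117715963-117716171) held 249.6 ± 53.9 tags with DEX (n = 9). At Slc45a1/Errfi1 the counts were 9 to 12 of 12 sites with DEX (median 11) and 1 to 7 with PBS (median 4). In these 3 chains every DEX library was above every PBS library, with an exact adjusted p of 0.0020. In the order given, 8, 9 and 4 of their sites had no PBS call and could add to the DEX side only. These values too are a description.

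Smaller chains could be filled completely. All 4 sites at Bcl2l1, the gene of the survival protein Bcl-xL, were called in each of 9 DEX libraries, against 0 to 3 per PBS library (median 0). The 5 sites at Lcn2, which encodes a siderophore-binding protein of the acute phase, and Slc25a25 were called at 4 or 5 sites with DEX and at 0 or 1 with PBS. Chains at Mtss1 (mean difference 4.89 of 7 sites), Zmiz1 (4.33 of 7) and Retreg1, which encodes a receptor of endoplasmic reticulum autophagy (3.78 of 6), also passed. In 6 of 139 chains every site was called in all 9 DEX libraries: Bcl2l1, Creld2/Gm33049/Pim3, Tsku, Tef/Tob2, Rhbdd2 and Thrsp, which were named after their values were seen. Site by site, 42.8% of the 556 clustered sites were called in all 9, against 36.5% of all 2563. The share of such chains among chains of every size is not given here.

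Mean differences were 2.33 sites at Ptpn1, 2.44 at Zbtb16 and 2.67 at Wdr5, chains that PBS livers also occupied. Sites called with PBS leave less room for a difference, so this is a description. It is no rule, since Slc45a1/Errfi1, with a mean of 4.11 sites called with PBS, differed by 6.67. The Ptpn1 chain was called at 7 to 9 of 9 sites with DEX (median 8) and 3 to 8 with PBS (median 5), with an exact adjusted p of 0.0149. The Zbtb16 chain was called at 6 to 8 of 8 sites with DEX (median 8) and 2 to 6 with PBS (median 6), and the Wdr5 chain at 5 or 6 of 6 sites with DEX (median 6) and 3 to 5 with PBS (median 3). Their exact adjusted p-values were 0.0050 and 0.0034. The 4 chains that did not pass were the contig, Hjurp, Mknk2/Mob3a and Stap2/Mpnd, with differences of 0 to 1.11 sites.

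All these counts depend on the length of the lists. With each list held to its highest sites, as many as the 78 that the shortest list holds, 0 of 139 chains passed in the exact test. That leaves few sites to count in each chain. At a common threshold of 86.6 normalized tags 102 passed. Which part of the difference comes from the number of sites above the caller's threshold was not tested.

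Site by site, 321 of 556 clustered sites (57.7%) were called more often with DEX and 0 less often (0 also at an unadjusted p under 0.05) in the exact conditional Cochran-Mantel-Haenszel test with oxygen as the stratum. Over all 2563 sites 55.3% were called more often and 0.039% less often, so the share of clustered sites was near that of all sites. The 298 sites without a PBS call could not come out as called less often. In 23 chains every site passed, in 3 none did. The sites that did not pass were of 2 kinds in the chains named above. Some were occupied in PBS livers too, like the Slc45a1 site called in 9 DEX and 9 PBS libraries. Others were called in few libraries of either kind, like the Hsd17b2 site called in 3 DEX and 0 PBS libraries.

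A larger share of the PBS calls than of the DEX calls lay at the strongest site of a chain. Here the strongest site is the one with the highest mean DEX tag count, and the 139 such sites were 25% of the clustered sites. They took 26.3% to 38.2% of the clustered sites called in a DEX library and 40.2% to 58% of those called in a PBS library. Of the 139, 101 were called in at least 1 PBS library. In 25 chains no site was called in any PBS library, in 14 every site was, and in 100 some were. Since the strongest site was defined with DEX tags, this is a description.

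Called clustered sites held somewhat more tags than the other called sites. Within each DEX library, the median of the clustered sites was 1.09 to 1.21 times that of the others. The log2 ratio was 0.20 ± 0.05 (SD, n = 9) and above 0 in 9 of 9 libraries (exact two-sided sign-flip permutation p = 0.0039, the smallest possible, adjusted p = 0.0078 over 4 comparisons of this kind). The same sets of sites were measured in each library, so this p does not cover the spread between sites or chains. The log2 ratio was 0.26 ± 0.08 in PBS libraries, a difference of -0.06 (exact permutation p = 0.074, adjusted 0.0983). Without 6 h hypoxia PBS replicate 1 it was -0.08 (exact p = 0.0128) and without 24 h hypoxia DEX replicate 3 -0.07 (exact p = 0.036), both unadjusted. That difference turned to 0.16 at the common threshold (exact p = 0.284) and to 0.07 at equal list length (exact p = 0.271).

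A library's called sites were less often clustered with DEX. The share was 21.4% to 25.2% with DEX (mean 22.9 ± 1.36) and 20.5% to 35.9% with PBS (29.2 ± 5.43, SD over 9 libraries). The difference was -6.31 percentage points, with an exact permutation p of 0.00275 and an adjusted p of 0.0078. By oxygen condition it was -5.36 points in normoxia (exact p = 0.4), -3.17 at 6 h (exact p = 0.1) and -10.4 at 24 h (exact p = 0.1), and 0.1 is the lowest p that 3 libraries against 3 allow. The direction turned at equal list length: with the highest sites of each library the share was 46.3% ± 3.36 with DEX and 35.9% ± 5.40 with PBS (SD over 9 libraries). The difference there was 10.4 points, with an exact permutation p of 0.00025. The calls that define the clusters come mostly from the longer DEX lists, so both shares are a description of these lists. The percent of clustered sites called minus the percent of other sites called was 3.93 points with DEX and 3.69 with PBS (difference 0.25, exact permutation p = 0.857), and the sign of this difference changed on leaving out any of 5 libraries. At the common threshold that difference was 5.86 points (exact p = 0.00025).

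**Figure D3:**
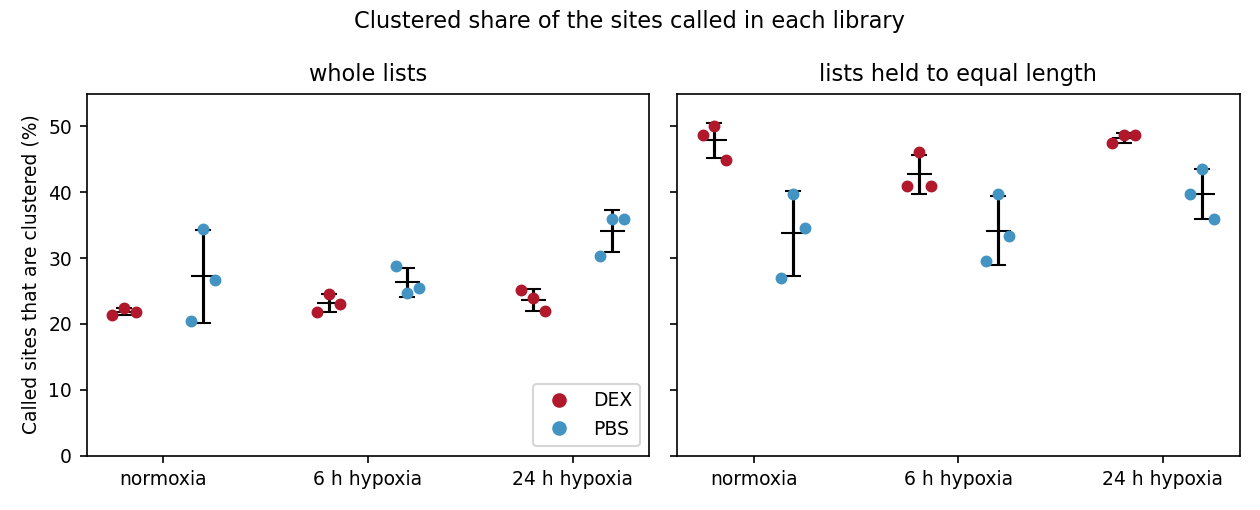
Points give, for each library, the percent of its called sites that are clustered, from whole lists (left) and from lists held to the length of the shortest (right), with mean and SD of 3 libraries per group. DEX libraries lie between 21.4% and 25.2% on the left, below most PBS libraries, and between 41.0% and 50% on the right, above most PBS libraries.

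A tag count in every library was available for 23 clustered sites, in 16 chains, that all 18 libraries called. At all 23 the count was higher with DEX (limma on log2 normalized tags, adjusted p under 0.05), and 0 were lower, against 95.2% higher and 0% lower of all 62 sites called in 18 libraries. The median log2 change was 1.62, against 1.63 for all 62. The fit pooled the spread over sites completely, so every change has an SE of 0.32 (n = 9 against 9).

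The largest change was at a site 17947 bp from Armc12, one chain along from Fkbp5, whose product is a co-chaperone of GR (chr17:28512744-28513084). It held 1086 to 1994 normalized tags with DEX (median 1663) and 29.3 to 708.6 with PBS (median 105), a log2 change of 3.69 (limma adjusted p = 4.4e-27). Every DEX library was above every PBS library. The next site of this chain (chr17:28518047-28518327) held 535 to 949.2 tags with DEX (median 736.9) and 94.9 to 708.6 with PBS (median 369.7). Its log2 change was 1.13 (limma adjusted p = 0.00047), and the groups overlapped.

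The Ptpn1 chain held 3 of the 23 sites. At chr2:167851683-167851963 the counts were 542.7 to 1022 with DEX (median 838.2) and 49.7 to 553.1 with PBS (median 129.7), a log2 change of 2.68 (limma adjusted p = 4.6e-15). At the strongest, chr2:167844631-167844911, they were 1328 to 2243 with DEX (median 1735) and 126 to 1959 with PBS (median 924.7), a log2 change of 1.09 (limma adjusted p = 0.00069). The groups overlapped at both sites, by most of the DEX range at the strongest and by little at its neighbour. No test compared the changes of these sites with each other. At the strongest site the PBS low of 126 was normoxia PBS replicate 1, and without that library the log2 change there was 0.77. The same library gave the PBS lows quoted for the Armc12 sites above and the Plin4 and Tsku sites below.

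Lipid and nuclear receptor genes were among the rest. Plin4, which encodes a lipid droplet coat protein, had a site with 529 to 1095 tags with DEX (median 891.6) and 36.2 to 990.2 with PBS (median 148.4), a log2 change of 2.48 (limma adjusted p = 2.4e-13). A site near Tsku, the gene of a secreted liver protein, held 433.3 to 746.6 tags with DEX (median 546.3) and 40.3 to 445 with PBS (median 148.2), and one 251118 bp from Foxo1, a transcription factor gene of glucose production, changed by a log2 of 1.91. Sites at Gm33049 (1.90), Hmcn2 (1.74) and Wdr5 (1.86, 1.72 and 1.67), in Zbtb16 (1.71 and 1.49) and in the gene of the xenobiotic receptor Nr1i2 (1.60) lay in the middle. Those near Slc45a1 (1.62), Mknk2 (1.48), Pim3 (1.48), Fbxo31 (1.30), the ganglioside synthesis gene St3gal5 (1.21), Tns1 (1.14) and Tob2 (1.06) and the third Ptpn1 site (1.37) complete the 23. The groups overlapped at 21 of the 23 sites, the exceptions being the Armc12 site above and the Wdr5 site at chr2:27597063-27597343. The overlap at other sites called in every library is not given here, so this count is not set against theirs.

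Centring each library on its median moved the median log2 change of all 62 sites from 1.63 to -0.00, and relative to it 5 clustered sites were higher and 7 lower. Counts over all 62 after centring are not given here. The change of the DEX effect with oxygen passed at 0 of 23 sites after 6 h and 0 after 24 h in limma, as at 0% of all 62. At an unadjusted p under 0.05 there were 3 and 0, against 5 and 0 of all 62. The DEX effect at the 23 sites was different from that in normoxia by a median log2 of -0.92 after 6 h and -0.74 after 24 h, against -0.87 and -0.48 at all 62. At each of the 23, normoxia PBS replicate 1 held the fewest tags of the normoxia PBS libraries. At the strongest Ptpn1 site it held 126, against 974.9 and 872.7 in replicates 2 and 3. Both medians rest in part on that library, and their values without it are not given here. Without 6 h hypoxia PBS replicate 1 the count after 6 h was 9.

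**Figure D4:**
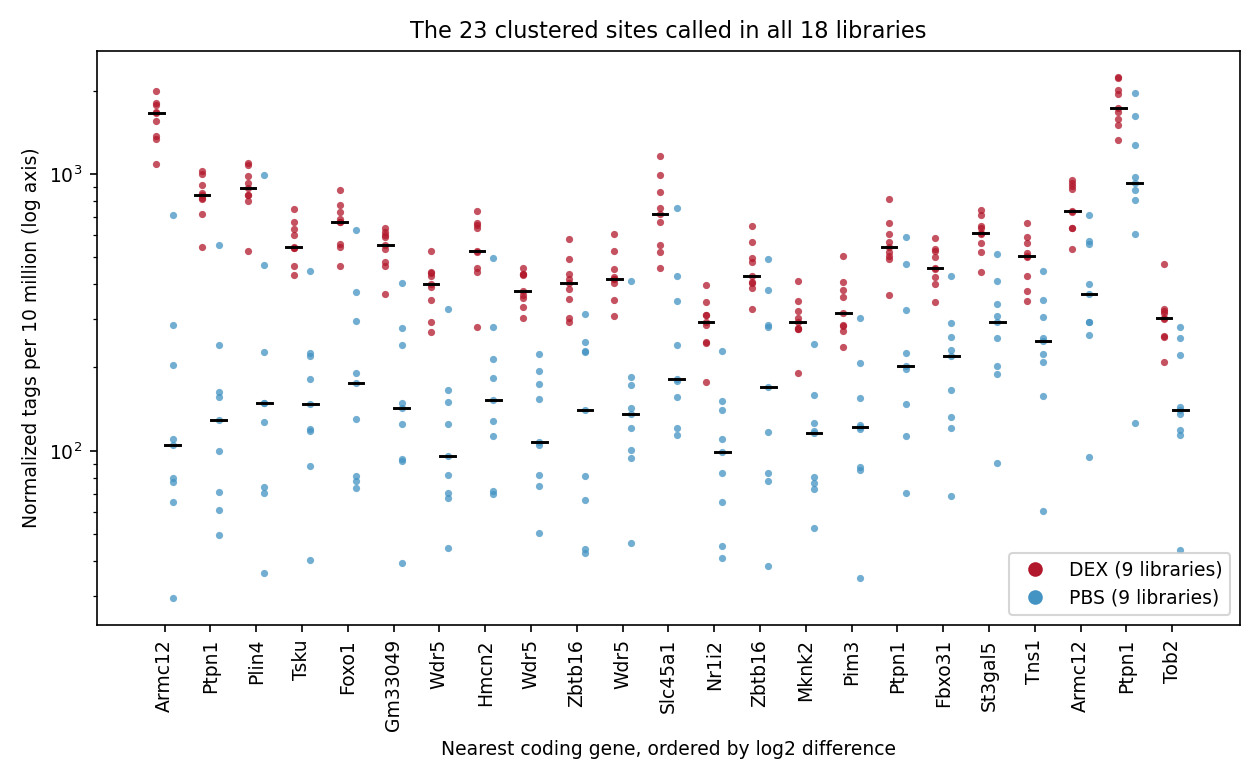
Normalized tags on a log axis at the 23 clustered sites called in all 18 libraries, ordered by log2 change and named by the nearest coding gene. Points are libraries, DEX left of PBS, and bars are medians of 9. The DEX median is above the PBS median at each of the 23 sites, by the most at the Armc12 site (1663 against 105) and the least at the strongest Ptpn1 site (1735 against 924.7).

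With DEX, hypoxia changed the tag count of few clustered sites. Of the 556, 238 were called in all 9 DEX libraries and could be compared, after centring each library on its median over the 935 such sites of the series. In limma, 6 were higher and 11 lower in hypoxia (6 h and 24 h together) than in normoxia at an adjusted p under 0.05, against 3.1% higher and 2.03% lower of all 935. That is 2.52% and 4.62% of the clustered sites, and 53 of the 238 had an unadjusted p under 0.05, against 162 of all 935. Against normoxia, 4 were higher and 5 lower after 6 h (1.71% and 0.856% of all 935) and 4 higher and 8 lower after 24 h (2.14% and 2.03%). The share of tags in peaks was 2.85% to 3.68% in normoxia, 1.93% to 3.15% after 6 h and 1.38% to 2.76% after 24 h. With it as a covariate 2 clustered sites were higher and 2 lower, against 5 and 10 of all 935. Without centring 1 was higher and 5 lower, against 2 and 9 of all 935. Without normoxia DEX replicate 2 the counts were 3 and 4, against 14 and 8 over all sites tested.

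The sites with more tags were led by Gadd45b, a stress-induced gene of growth arrest, and Gng7, which encodes a G protein gamma subunit, both of 1 chain. The site 2359 bp from Gadd45b (chr10:80934453-80934674) held 57.7, 64.0 and 61.2 normalized tags in normoxia, 151, 299.7 and 107.5 after 6 h and 140.2, 151 and 157 after 24 h. All 6 hypoxia libraries were above all 3 normoxia libraries. The centred log2 change was 1.54 ± 0.17 (SE, limma adjusted p = 0.00012). In Gng7, the site at chr10:80991497-80991704 held 268.6, 302.6 and 288.7 tags in normoxia, 409, 748.4 and 322.6 after 6 h and 453.8, 536.8 and 575.8 after 24 h, again with no overlap (log2 change 0.93 ± 0.14, limma adjusted p = 0.0023). Its neighbour at chr10:80994732-80994946 changed by 0.91 ± 0.19 (limma adjusted p = 0.0096).

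The other 3 rose by less. The site 2390 bp from Tubd1, the delta tubulin gene, held 91.0, 88.8 and 99.9 tags in normoxia, 177, 237.3 and 144.6 after 6 h and 103, 100.6 and 129.7 after 24 h (log2 change 0.76 ± 0.15, limma adjusted p = 0.0087). Its values lay furthest from normoxia after 6 h. Changes were 0.64 ± 0.17 near Mtarc2, a mitochondrial reductase gene (limma adjusted p = 0.049), and 0.51 ± 0.13 inside Fkbp5 (limma adjusted p = 0.036). The Mtarc2 and Fkbp5 calls were each lost on leaving out 7 of the 9 libraries in turn.

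The largest fall was inside Ppard, the gene of a nuclear receptor that senses fatty acids (chr17:28272320-28272546). It held 374.8, 546 and 446.7 tags in normoxia, 143, 178 and 95.2 after 6 h and 88.9, 213.6 and 215.9 after 24 h, and no hypoxia library reached a normoxia library. The log2 change was -1.47 ± 0.17 (limma adjusted p = 0.00024). Near Agtpbp1, a carboxypeptidase gene, the counts were 713.9, 824.7 and 719.9 in normoxia, 406.4, 393.2 and 302.6 after 6 h and 142, 366.1 and 397.9 after 24 h, again apart (log2 change -1.10 ± 0.19, limma adjusted p = 0.0051).

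Cholesterol, protease inhibitor and transcription factor genes followed. Srebf2, the master regulator gene of cholesterol synthesis, had a site with 213.9, 212.9 and 141 tags in normoxia, 107.5, 187 and 81.8 after 6 h and 53.8, 103 and 66.4 after 24 h (log2 change -0.86 ± 0.16, limma adjusted p = 0.0077). One 6 h library lay within the normoxia range. Serpina1e, one of several near-identical alpha-1 antitrypsin genes whose reads may be split between copies, had a site 4906 bp away with a log2 change of -0.95 ± 0.22 (limma adjusted p = 0.022). The changes were -0.87 ± 0.16 in Tpst2, a sulfotransferase gene, -0.72 ± 0.15 for the site 87114 bp from Cebpb, and -0.71 ± 0.18 near Slc25a51. They were -0.64 ± 0.13 and -0.60 ± 0.13 at sites of the peptidase gene Dpp9, -0.58 ± 0.14 for the Ptpn1 site at chr2:167831055-167831294 and -0.54 ± 0.13 in Pitpnm2. Adjusted p-values of these 7 limma calls were 0.0065 to 0.034. Without normoxia DEX replicate 2 the calls at Serpina1e, Srebf2, Slc25a51, Ptpn1, Pitpnm2 and both Dpp9 sites were lost, as were those at Tubd1, Fkbp5 and the Gng7 site at chr10:80994732-80994946. Leaving out each of the 9 libraries in turn, the calls at Slc25a51 and Pitpnm2 were each lost 6 times, that at Ptpn1 4 times and that at Serpina1e 3 times. Without centring, the calls kept were Gadd45b, Serpina1e, Agtpbp1, Srebf2, Ppard and Tpst2, and with the share of tags in peaks as a covariate they were Gadd45b, the other Gng7 site, Ppard and Cebpb.

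Detection could show little with so few libraries. With Fisher's exact test of called or not in 6 hypoxia and 3 normoxia DEX libraries, the lowest exact p reached was 0.0119, before adjustment over 2544 sites. None of the 553 clustered sites tested passed (0 called, smallest exact adjusted p = 0.297). At an unadjusted p under 0.05 there were 56 of the 553, of which 1 was called more in hypoxia, against 260 of all 2544 sites. With DEX, 24 clustered sites were called in 0 of 6 hypoxia libraries and 3 of 3 normoxia libraries. The count over all 2544 sites is not given here, so the 24 are not set against it. The 24 included a site in Apoc3 (56.0 ± 3.06 tags, n = 3), one in Acsl1, which activates fatty acids (122.5 ± 29.5, n = 3), a pair near Serpina1e and a pair in Tpst2. In Gng7, 3 sites went the other way, called in no normoxia DEX library but in 2, 3 and 2 after 6 h and 1, 0 and 3 after 24 h. Sites of these kinds were named after their values were seen.

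Measured as whole chains, with the mean centred log2 tag count of the sites called in all 9 DEX libraries, 2 of 109 chains were higher in hypoxia and 6 lower in limma. Over 754 chains of every size 3.58% were higher and 2.25% lower. Gadd45b/Gng7 was higher by 0.88 ± 0.15 over 4 sites (limma adjusted p = 0.0050) and Tubd1/Vmp1 by 0.51 ± 0.13 over 2 (limma adjusted p = 0.031). Agtpbp1 (-1.10 ± 0.18, 1 site), Serpina1e/Serpina11 (-0.95 ± 0.22, 1 site), Srebf2/Shisa8 (-0.86 ± 0.16, 1 site), Ppard (-0.85 ± 0.16, 2 sites), Tpst2 (-0.66 ± 0.14, 2 sites) and Dpp9 (-0.62 ± 0.11, 2 sites) were lower, with limma adjusted p of 0.0050 to 0.019. Without centring, the calls at Gadd45b/Gng7, Tubd1/Vmp1, Tpst2 and Dpp9 were lost, and with the share of tags in peaks as a covariate those at Ppard, Serpina1e/Serpina11, Srebf2/Shisa8, Tpst2 and Tubd1/Vmp1. Without normoxia DEX replicate 2, 1 chain was higher and 2 lower. The Tubd1/Vmp1 call was lost on leaving out any of 7 libraries, and 1 chain in place of 2 was higher without 6 h replicate 1 or 2 or 24 h replicate 1 or 2.

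Few pairs of sites within a chain were shown to change unequally in hypoxia. A pair was 2 consecutive sites among those called in all 9 DEX libraries. Sites called less often could lie between them. Of 129 such pairs, 3 changed unequally in limma on the within-library difference, 2 with a higher and 1 with a lower right site. In chains of every size it was 1.1% in each direction of 181 pairs. The sites of the 3 pairs lay 10910, 27800 and 29237 bp apart, each with other sites of the chain between them. At an unadjusted p under 0.05 there were 16 of the 129, against 23 of all 181, and pairs that did not pass are not shown to have moved together. This measure does not depend on depth or centring. In Ppard, the site at chr17:28283236-28283451, 10910 bp to the right of the one that fell, held 138, 199.5 and 180 tags in normoxia, 129, 201 and 140 after 6 h and 64.1, 143.5 and 149 after 24 h. Its groups overlapped, and the log2 ratio of right to left site was -1.40 ± 0.08 in normoxia, 0.19 ± 0.35 at 6 h and -0.53 ± 0.05 at 24 h (SD over 3 libraries). The difference of hypoxia from normoxia was 1.24 ± 0.17 (SE, limma adjusted p = 0.00079).

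In the Gadd45b/Gng7 chain the middle site stood out. The Gng7 site at chr10:80962255-80962471 held 130, 182 and 176 tags in normoxia, 152, 251 and 140 after 6 h and 107, 153 and 186 after 24 h, with overlapping groups. Its log2 ratio to the Gadd45b site on its left changed by -1.40 ± 0.19 in hypoxia (limma adjusted p = 0.00079), and the ratio of the Gng7 site on its right to it by 0.79 ± 0.16 (limma adjusted p = 0.023). The second of these was lost on leaving out any of 4 libraries, normoxia DEX replicates 2 and 3, 6 h replicate 1 and 24 h replicate 2. Without normoxia DEX replicate 1, 5 pairs passed. The middle site was also the one of the chain most often called with PBS, in 5 libraries against 0 or 1 for the others.

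**Figure D5:**
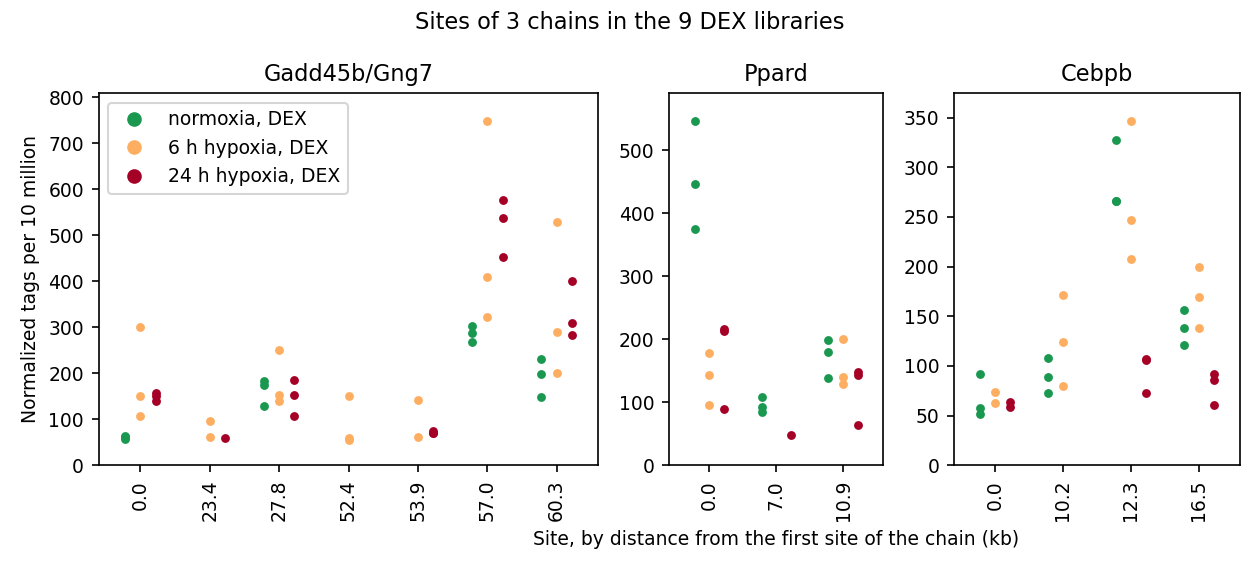
Normalized tags in the 9 DEX libraries at each site of the Gadd45b/Gng7, Ppard and Cebpb chains, ordered by distance in kb from the first site. Each point is a library in which the site was called, coloured by oxygen condition. Hypoxia points lie above normoxia at the first and the last 2 sites of Gadd45b/Gng7 (1 library of 6 overlaps at the last), below it at the first Ppard site, and, after 24 h, below it at the last 2 Cebpb sites.

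The 2 times in hypoxia differed at 2 chains. Comparing 24 h with 6 h of hypoxia, both with DEX, 3 of 238 clustered sites were lower and 0 higher in limma, against 1.28% lower and 0.107% higher of 935. The site 87114 bp from Cebpb (chr2:167777419-167777674) held 266.3, 266.3 and 327.4 tags in normoxia, 208, 346.5 and 247.4 after 6 h and 72.6, 106.2 and 106.8 after 24 h. The 24 h libraries lay below all others, and the change from 6 h was -1.21 ± 0.17 (limma adjusted p = 0.0051). Its neighbour at 91336 bp changed by -0.82 ± 0.17 (limma adjusted p = 0.023), a call lost on leaving out any of 4 libraries, 6 h replicate 3 and each 24 h replicate.

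The Map2k3 site at chr11:60935223-60935434 held 122, 158.4 and 159.5 tags in normoxia, 173, 277.2 and 185 after 6 h and 62.4, 73.5 and 94.9 after 24 h. It was above normoxia in all 6 h libraries and below it in all 24 h libraries, with a change of -1.18 ± 0.18 between the times (limma adjusted p = 0.0054) and of -0.07 ± 0.15 for both times together against normoxia. As chains, Cebpb was lower after 24 h than after 6 h by a log2 of -1.01 ± 0.15 and Map2k3 by -0.93 ± 0.16 (limma adjusted p = 0.0053 and 0.0085), against 1.46% of 754 chains lower and 0.265% higher. One of 129 pairs was unequal between the times, a Ptpn1 pair at chr2:167828326-167828635 and chr2:167831055-167831294 (right minus left -1.0 ± 0.20, limma adjusted p = 0.039), against 1.1% of 181 pairs. Leaving out normoxia DEX replicate 1 or 3, which enter the comparison of the times through the shared spread and the choice of sites, gave 6 and 7 changed sites in place of 3.

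Chains lay near genes of several of the lists compared, which were picked with earlier results of these data known. Of 26 classical glucocorticoid-induced genes 10 were the nearest gene of a clustered site: Fkbp5, Tsc22d3, Zbtb16, Ddit4, Errfi1, Lcn2, Klf15, Cebpb, Tat and Lpin1, against 186 of 21896 protein-coding genes (0.849%). Another 13 of the 26 had sites found in 3 or more lists that were not clustered. Of their 48 clustered sites 25 were called more often with DEX. The share over all 2563 sites, 55.3%, is the one to set beside this and the counts for the lists that follow. Tsc22d3, which encodes the anti-inflammatory protein GILZ, had a site 25970 bp away called in 8 DEX libraries (76.2 ± 16.9 tags) and 1 PBS library. Lpin1, a gene of lipid synthesis, had a site inside it with 540.4 ± 150.2 tags with DEX (n = 9) and 159 ± 121 with PBS (n = 8).

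Glucose and amino acid metabolism gave 6 of 22 genes, with 9 of 20 clustered sites called more often with DEX (55.3% of all sites). The aminotransferase gene Tat had 5 clustered sites of which 4 passed, and Gpt2, another aminotransferase gene, 3 of which 1 passed. The glucose-6-phosphatase gene G6pc had 3 of which 1 passed, and Irs2, which encodes an adaptor of the insulin receptor, 4 of which 2 passed. Pck1, the gene of the gluconeogenic enzyme PEPCK, had 2 of which 0 passed: its best site, 378 bp away, was called in 9 DEX and 6 PBS libraries.

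Lipid, bile acid and cholesterol metabolism gave 7 of 26 genes (10 of 18 clustered sites called more often), among them Abcc2, a bile canalicular transporter gene, whose best site was called in 9 DEX and 0 PBS libraries (133 ± 46.6 tags with DEX), and the HDL receptor gene Scarb1, called at best in 9 DEX and 3 PBS libraries. Acute phase and inflammation gave 7 of 24 genes, and 13 of their 16 clustered sites were called more often (55.3% of all sites). Orm1 had a site called in 9 DEX libraries (144 ± 20.7 tags) and 4 PBS libraries (45.1 ± 27.1), Il6ra, which encodes the interleukin-6 receptor, 4 sites of which 3 passed, and the fibrinogen gene Fgg 3 of which 3 passed. Haptoglobin (Hp) had 3 sites of which 2 passed.

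Of 22 liver transcription factor and nuclear receptor genes 4 had clustered sites (Cebpb, Ppard, Nr1i2 and Foxo1, 8 of 15 sites called more often). Of 18 clock genes 1 did, Tef, with 2 sites that both passed. Of 26 targets of hypoxia-inducible factors 0 did, although 11 of these had other sites found in 3 or more lists. The lists and their clustered members were not tested against other genes.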

How the data were processed

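Each of the 18 GR libraries came as 1 HOMER peak list per library, and the 3 inputs were not analysed here. A peak had to reach, per the file headers, a Poisson p of 1e-04 and hold 4 times the tags of the input and of the surrounding 10000 bp. The submitters' processing notes name BWA 0.7.17, SAMtools 1.10, Trimmomatic, HOMER and build mm10. Per the file headers, the normalized tag count is a signal scaled by the authors to 10000000 tags per library, the score is the caller's own value per peak, at least 50, and fold over input is the deposited ratio of normalized tags. The filter on the surrounding bases can act on close neighbours, and its part in the chains was not tested.

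Sites, chains, nearest protein-coding genes (RefSeq, GRCm38.p6) and tests were computed with Python 3.11.15, NumPy 2.4.6, pandas 2.3.3, SciPy 1.17.1, Biopython 1.88, R 4.3.3 and limma 3.58.1. Detection was tested with an exact Cochran-Mantel-Haenszel test, chain counts and library summaries with exact permutation tests of DEX labels within oxygen conditions, and log2 normalized tags (no pseudocount) with limma over the sites called in every library compared. All tests were two-sided, p-values were adjusted by Benjamini-Hochberg over all sites, chains or pairs tested, and the threshold was 0.05. The comparisons were checked on simulated data first. A site without a peak has no tag count, so tag comparisons cover detected sites only. P-values measure the spread between the libraries, whose animals are not described further.

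Named were the 12 chains with the most sites, the 12 with the largest difference in sites called, the clustered sites called in all 18 libraries, those past a hypoxia test and the members of the gene lists. Some items that this rule names are not reported here. The clustered sites and gene lists were chosen with earlier results of these data known.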

Additional observations from a re-analysis of the deposited data

How the results depend on the processing

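The number of clustered sites and chains followed the rule: 362 sites with a shorter spacing limit, 321 sites in 84 chains with 5 lists required, 1084 sites in 403 chains with chains of 2, and 331 sites in 64 chains with chains of 4. The sites called more often with DEX then numbered 627 with chains of 2 (1 less often) and 180 with chains of 4. More tags in hypoxia were found at 10 sites with chains of 2, and fewer tags at 5 with 5 lists and 4 with chains of 4. At the common threshold 177 sites were called more often with DEX. The common threshold turned the DEX minus PBS difference in the log2 ratio of median tags to 0.16 and raised that in the percent called, clustered minus other, to 5.86 points.

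Equal list length and leaving out the contig were chosen after seeing the data. At equal list length 0 chains were called at more sites, the clustered share turned to 10.4 points, the log2 ratio to 0.068, and the mean differences to -0.22 sites at Slc45a1/Errfi1, -0.11 at Klf15/Aldh1l1 and -0.11 at Wdr5. Without the contig 320 of 546 sites were called more often with DEX.

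Median centring of the 18 libraries left 5 sites higher and 7 lower with DEX. It turned the log2 change to -0.49 at Tns1, -0.15 at Mknk2, -0.57 at Tob2, -0.16 at Pim3, -0.034 at Nr1i2, -0.50 at the second Armc12 site, -0.54 and -0.27 at the Ptpn1 sites at 167844631 and 167860607, -0.011 at Slc45a1, -0.43 at St3gal5, -0.33 at Fbxo31 and -0.15 at the Zbtb16 site at 48737516. For hypoxia with DEX, no centring left 1 site higher, 5 lower and 0 chains higher, with 6 of the 17 named sites kept. The percent of tags in peaks as a covariate left 2 sites higher and 2 lower, and 1 chain higher and 2 lower. Fisher's exact test of detection gave 0 sites. The cause of these moves was not tested.

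The labels do not say that a replicate number marks a shared batch. Deviations of same-numbered libraries correlated above 0.1 in 28 of 45 pairs over 18 libraries (mean r 0.117, others -0.059) and in 7 of 9 over the DEX libraries (mean r 0.233, others -0.118), and 12 of 18 and 6 of 9 libraries were closest to their own number. Since not every pair passed 0.1, pairing was not taken as given, and these values are a hint of it from the data. With the replicate block 212 sites were called more often with DEX, 11 changed between 24 h and 6 h, 4 chains were higher in hypoxia and 9 neighbour pairs were unequal, and the Ptpn1 chain no longer passed for sites called (exact adjusted p = 0.0541).

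Leaving out each library in turn gave 288 to 355 sites and 132 to 137 chains called more with DEX, and 23 sites with more tags each time. The sites whose DEX effect differed at 6 h numbered 0 to 9. For hypoxia with DEX the ranges were 3 to 9 sites higher and 4 to 13 lower, 1 to 2 chains higher and 2 to 7 lower, 2 to 5 unequal pairs and, between 24 h and 6 h, 2 to 7 sites. The DEX minus PBS difference ranged from -7.43 to -5.10 points for the clustered share, from -0.081 to -0.037 for the log2 ratio, and from -0.49 to 1.07 points for the percent called, clustered minus other. The last was -0.19 without normoxia DEX replicate 2, -0.40 without normoxia PBS replicate 1, -0.49 without 6 h DEX replicate 2, -0.41 without 24 h DEX replicate 1 and -0.04 without 24 h PBS replicate 3.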
